A study of Mus musculus with 1536 samples.

Results

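A set of 10 genes for acetylcholine receptors was followed through single serotonin neurons of the mouse raphe. They are the muscarinic receptor genes Chrm1, Chrm2, Chrm3 and Chrm4 and the nicotinic subunit genes Chrna3, Chrna4, Chrna5, Chrna7, Chrnb2 and Chrnb4. They were chosen by name, and make up 10 of the 53263 genes in the table. For each gene the cells with a read, the genes detected beside it in the same cell, and the level in cells marked by Zeb2, Irx2, high Grik1, Slc17a8 or Gad1 and Gad2 were taken, by dissection and by plate.

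The cells came from Sert-tdTomato-Cre mice crossed with Ai14, on the C57BL/6J strain, 40 to 45 days old and of both sexes. All mice carried the same alleles, no treatment was given, and every sorted cell carried the tdTomato label that Sert-driven Cre switches on, in cells that express Sert or have expressed it before. The labels give a dissection named Principal DR, the dorsal raphe without its caudal extension, with 290 cells on 5 plates, and a dissection named All DR, with 709 cells on 11 plates. According to the series text the second dissection held the median raphe as well as the whole dorsal raphe, and no label says which cell lay in which nucleus. The labels name no animal for any cell and no plate holds cells of both dissections, so each dissection is 1 sample, dissection and plate cannot be told apart, and no p-value is given.

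Acetylcholine reaches the raphe mainly from cholinergic neurons of the pontine tegmentum, and acts there through receptors of different kinds. Muscarinic receptors are G protein-coupled: the products of Chrm1 and Chrm3 couple to Gq, which activates phospholipase C and can close M-type potassium channels, and the products of Chrm2 and Chrm4 couple to Gi and Go, which inhibit adenylyl cyclase and can open inwardly rectifying potassium channels. Nicotinic receptors are cation channels made of 5 subunits around a pore, whose make-up sets their affinity and calcium permeability. The α4 and β2 subunits (Chrna4, Chrnb2) form the common high-affinity receptor of the brain, α3 and β4 (Chrna3, Chrnb4) the main receptor of autonomic ganglia, α5 (Chrna5) joins other subunits as an accessory, and α7 (Chrna7) can form a channel by itself.

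The genes lie on 7 chromosomes (GRCm38). The muscarinic genes are spread over chromosomes 19 (Chrm1, chr19:8663789-8683587), 6 (Chrm2, chr6:36388084-36528414), 13 (Chrm3, chr13:9875486-10360847) and 2 (Chrm4, chr2:91927249-91928688). Chrna4 lies at chr2:181018380-181043546, Chrna7 at chr7:63098692-63212569 and Chrnb2 at chr3:89746195-89764632. Chrna5 (chr9:54980880-55007779), Chrna3 (chr9:55010111-55026562) and Chrnb4 (chr9:55028154-55048779) stand next to each other on chromosome 9 within 67.9 kb, with 2331 bases between Chrna5 and Chrna3 and 1591 bases between Chrna3 and Chrnb4. Chrna5 is on the plus strand of that cluster and the other two on the minus strand. Reads had been counted without regard to strand, which touches 3 of the genes: Chrnb2 shares 1365 exonic bases, 16.3% of its exonic length, with Adar on the opposite strand, Chrm1 shares 329 with Gm22820 and Chrm2 shares 142 with the lincRNA 9330158H04Rik.

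Promoter sequences, from 250 bases before to 50 after each RefSeq start (GRCm38.p6), were at hand for 9 of the 10 genes, all but Chrm1. Those of Chrm2 and Chrna4 are shown because these genes passed the fold used below in the most comparisons, and those of Chrna5 and Chrnb4 because they lie in the chromosome 9 cluster and hold the E-box CACCTG that Zeb2 protein is known to bind. Each is printed 5′ to 3′ on the strand of its gene, with capitals for CACCTG and for the GC box GGGCGG, each read on both strands (CAGGTG and CCGCCC).
Chrm2 promoter, chr6:36387834-36388133, plus strand: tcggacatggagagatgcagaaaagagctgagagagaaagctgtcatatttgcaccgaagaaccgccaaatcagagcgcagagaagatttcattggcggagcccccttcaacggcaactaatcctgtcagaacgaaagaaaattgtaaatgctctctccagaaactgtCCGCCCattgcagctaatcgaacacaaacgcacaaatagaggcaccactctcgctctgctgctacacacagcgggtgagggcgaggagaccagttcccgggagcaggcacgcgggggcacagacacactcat
Chrna4 promoter, chr2:181039128-181039427, minus strand: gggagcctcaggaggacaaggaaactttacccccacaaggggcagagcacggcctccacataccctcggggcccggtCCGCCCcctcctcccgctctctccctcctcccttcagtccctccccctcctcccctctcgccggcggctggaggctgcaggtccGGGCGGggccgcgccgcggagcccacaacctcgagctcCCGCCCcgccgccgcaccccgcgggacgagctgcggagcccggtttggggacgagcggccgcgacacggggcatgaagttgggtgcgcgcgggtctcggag
Chrna5 promoter at the second start, chr9:54981238-54981537, plus strand: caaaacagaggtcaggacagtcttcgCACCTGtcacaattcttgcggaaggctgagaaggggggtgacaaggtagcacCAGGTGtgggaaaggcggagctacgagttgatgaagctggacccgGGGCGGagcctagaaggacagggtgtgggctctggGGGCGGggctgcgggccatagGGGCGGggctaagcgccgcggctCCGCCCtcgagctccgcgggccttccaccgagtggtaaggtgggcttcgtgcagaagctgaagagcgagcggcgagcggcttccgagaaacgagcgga
Chrnb4 promoter, chr9:55048495-55048794, minus strand: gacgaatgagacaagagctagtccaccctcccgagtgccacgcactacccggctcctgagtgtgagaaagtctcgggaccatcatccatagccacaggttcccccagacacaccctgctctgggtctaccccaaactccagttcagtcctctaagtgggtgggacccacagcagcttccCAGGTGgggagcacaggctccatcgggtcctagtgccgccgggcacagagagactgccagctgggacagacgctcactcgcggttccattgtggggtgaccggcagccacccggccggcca
The Chrm2 window held 1 GC box and no CACCTG, and the Chrna4 window held 3 GC boxes and no CACCTG. The Chrna5 window at the second start held 2 CACCTG and 4 GC boxes, and the Chrnb4 window held 1 CACCTG and no GC box. Among the windows not shown, that of Chrm4 held 1 CACCTG and 4 GC boxes, that of the first Chrna5 start held neither, and none of those of Chrm3, Chrna3, Chrna7 and Chrnb2 held CACCTG. Of 32851 mouse promoters of this length, 20.2% held CACCTG and 35.7% held GGGCGG. These letters are a description of the windows and do not show that a protein binds there.

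A cell had between 96834 and 2780443 reads on genes, with a median of 755926 in Principal DR and 869546 in All DR. Every cell had reads of Tph2, which makes the serotonin-synthesizing hydroxylase, and of the serotonin neuron factor Fev, and 997 of 999 had reads of Slc6a4 (Sert), so the label of serotonin neuron fitted its markers. Cells were sorted by a Sert-driven label, and the paper describes the 999 as Tph2-positive. Tph2 and Slc6a4 are therefore no independent check of that label. The defining cholinergic gene Chat had a read in 8 cells and the GABA transporter gene Slc32a1 in 5, and Slc17a7 had none. Transcripts of oligodendrocytes were present, with Mbp in 744 of 999 cells: the 6 markers summed to a mean of 67.6 CPM (reads of a gene per 1000000 reads of the cell) in Principal DR, with plates from 18.7 to 114, and of 203 CPM in All DR, with plates from 44.4 to 1565 and a mean of 95.1 CPM without plate 55, the highest. Their part in the results was not tested. Reads were not collapsed to molecules, so the exact 95% intervals below cover counting error only.

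The Gq-coupled receptor was represented by Chrm1, and Chrm3 was close to absent. In Principal DR, Chrm1 had a read in 61 of 290 cells (21.0%, interval 16.5 to 26.2), with plate means from 1.98 through a median of 3.26 to 7.30 CPM. In All DR it had a read in 181 of 709 cells (25.5%, 22.4 to 28.9), with plate means from 2.81 through 5.02 to 15.5 CPM. The ranges of the plates overlapped. Thinned to 250000 reads a cell, which removes differences in depth and leaves out 9 shallower cells, the shares were 18.0% and 23.1%. Chrm3 had a read in 2 cells of each dissection, and no cell of the series reached 5 reads of it.

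Chrm2 was the leading Gi-coupled gene and Chrm4 was sparse. Chrm2 had a read in 131 cells of Principal DR (45.2%, 39.3 to 51.1) and in 344 of All DR (48.5%, 44.8 to 52.3), or 41.5% and 46.2% after thinning. The shares were alike, but the levels were not. Plate means of Chrm2 ran from 11.5 through 15.5 to 19.3 CPM in Principal DR and from 27.3 through 49.3 to 162 CPM in All DR, without overlap, and the highest single cells held 144 and 660 CPM. Chrm4 had a read in 16 cells (5.52%) and 50 cells (7.05%), with a median of 2 reads in the cells that had any, and 3.46% and 4.28% after thinning.

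Among the nicotinic genes, the β2 subunit gene was detected in nearly all cells and the α subunit genes in only part of them. Chrnb2 had a read in 288 of 290 Principal DR cells and 700 of 709 All DR cells, with plate means from 64.4 through 70.2 to 90.4 CPM and from 52.5 through 67.1 to 76.0 CPM. Its plates overlapped between the dissections. It shares exonic bases with Adar, and the effect of reads in those bases on its counts was not tested. Adar stood at 52.3 CPM, and over the 999 cells the Pearson correlation of Chrnb2 with Adar was 0.163, a description over cells that share plates and depth.

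Chrna4 separated the dissections most clearly. It had a read in 59 cells of Principal DR (20.3%, 15.9 to 25.4) and 482 cells of All DR (68.0%, 64.4 to 71.4), and in 18.3% and 65.3% after thinning. Plate shares ran from 3.57% to 25.8% in the first and from 57.1% to 90.0% in the second, and plate means from 1.11 through 7.45 to 13.9 CPM and from 30.4 through 34.6 to 43.9 CPM. Neither the shares nor the means of the plates overlapped.

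The remaining nicotinic genes were found in fewer cells. Chrna7 had a read in 85 cells of Principal DR (29.3%, 24.1 to 34.9) and 113 of All DR (15.9%, 13.3 to 18.8), with 21.8% and 12.7% after thinning, and its plate means overlapped, with medians of 1.69 and 1.66 CPM. Chrna5 had a read in 24 cells (8.28%) and 34 cells (4.80%), or 6.92% and 2.85% after thinning. Over all cells both genes stood at larger shares in Principal DR than in All DR, but the plates overlapped. Plate shares of Chrna7 ran from 7.32% through 17.9% to 44.1% in Principal DR and from 6.67% through 15.6% to 20.8% in All DR, and those of Chrna5 from 2.44% through 7.53% to 17.9% and from 0% through 3.85% to 18.5%. The reverse order held for the ganglionic pair: Chrna3 had a read in 6 cells (2.07%) of Principal DR and 80 (11.3%) of All DR, and Chrnb4 in 4 cells (1.38%) and 39 (5.50%), here too with plates that overlapped. Where detected, Chrna3 and Chrnb4 were not at the limit of detection, with medians of 13.5 and 13 reads in the cells that had any, against 2 for Chrm4 and 5 for Chrna5 and Chrna7.

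**Figure D1:**
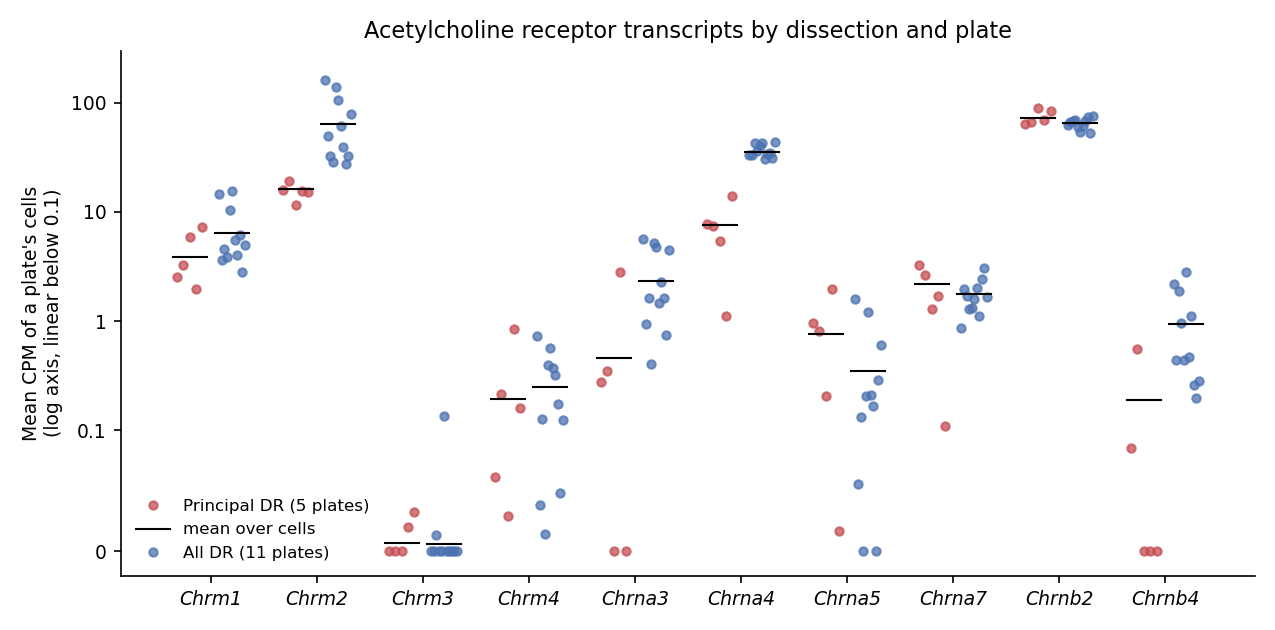
Mean CPM of each gene on each plate (points, vertical log axis that is linear below 0.1) for the 5 Principal DR and 11 All DR plates, with the mean over all cells of a dissection as a black bar. The points of Chrm2 and Chrna4 do not overlap between dissections, those of Chrnb2 sit together near 70, and Chrm3 stays near 0.

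Divided by exonic length, mean CPM per kb over all 999 cells gave the order Chrm2 (8.21), Chrnb2 (8.02), Chrna4 (5.46), Chrm1 (0.869), Chrna7 (0.418), Chrna3 (0.338), Chrnb4 (0.194), Chrm4 (0.161), Chrna5 (0.150) and Chrm3 (0.00104). The order differed by dissection. In Principal DR, Chrnb2 (8.63 CPM per kb) led before Chrm2 (2.65) and Chrna4 (1.50), and in All DR Chrm2 (10.5) led before Chrnb2 (7.77) and Chrna4 (7.09). Plate means per kb of neighbours in the order overlapped, except between Chrnb2 (at least 7.68 on a plate) and Chrm2 (at most 3.20) in Principal DR and between Chrna4 (at least 6.06) and Chrm1 (at most 2.39) in All DR, so that the order within the sparse genes is not settled by these plates.

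The other receptor genes of the family were mostly missing. Of 11 such genes, 8 had a read in fewer than 10 of 999 cells, among them Chrm5 with 8 and Chrnd with 0, and none of the 11 reached the mean of 1 CPM asked for below. Chrna1 and Chrnb1, subunits of the muscle receptor, had a read in 89 and 81 cells, and Chrna6, an α subunit typical of catecholamine neurons, in 41. Chrna1 thus had a read in a larger share of cells (8.91%) than Chrm4, Chrna3, Chrna5 or Chrnb4 had over both dissections. It was near the limit of detection, with a median of 2 reads in the cells that had any. Its mean was 0.465 CPM, against 1.78 for Chrna3. In All DR alone its share was 7.33%, below the 11.3% of Chrna3.

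In the comparisons that follow, sets of cells are compared by the log2 ratio of mean CPM plus 1, over genes with a mean of at least 1 CPM in the cells compared, and a difference of at least 1 on this scale (2-fold) in either direction is counted. The same ratio within each plate that has at least 3 cells of both sets shows how far it holds from plate to plate.

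The first comparison was of the dissections. Mean levels of 3 receptor genes were more than 2-fold higher in All DR: Chrna4 (35.6 against 7.53 CPM, log2 2.10), Chrm2 (63.5 against 16.1, 1.92) and Chrna3 (2.32 against 0.461, 1.18). Chrm1 (0.60), Chrna7 (-0.22) and Chrnb2 (-0.15) did not reach the fold. Of 6 genes that could be compared, 3 were thus higher and none lower, where 1.75% of 12834 genes were higher by this rule and 2.88% lower. The median was 0.89 over the 6 genes and -0.01 over all genes. Plates did not overlap for Chrm2 and Chrna4, with All DR above, as was so for 4.92% of all genes. Without plate 48 Chrna3 stood at a log2 difference of 0.997, just short of the fold.

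Much of the difference in Chrm2 sat in cells that Principal DR hardly held. Cells with Zeb2 numbered 147 in All DR and 3 in Principal DR, cells with Irx2 154 and 10, and cells with high Grik1 94 and 6. Among cells of none of these sets, 384 in All DR and 273 in Principal DR, Chrm2 stood at 10.4 against 15.9 CPM, a log2 ratio of -0.57 in the other direction. Chrna4 kept a difference of 1.63 (21.4 against 6.27 CPM, with a read in 201 of 384 and 49 of 273 cells), Chrna3 fell short of the fold at 0.86 and Chrm1 was at -0.91. This comparison was added after the values had been seen.

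Zeb2-positive cells of All DR, those with at least 1 read of the zinc finger transcription factor Zeb2, held most of the muscarinic transcripts. Chrm2 and Chrm1 were both far above the level of the cells without Zeb2 on every plate, and cells with both genes were the rule among them. The ganglionic nicotinic genes Chrna3 and Chrnb4 and the accessory subunit gene Chrna5 were also found in more of these cells. Chrna4 and Chrnb2 were at somewhat lower levels than in the cells without Zeb2, among which were nearly all cells with Irx2.

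Chrm2 had a read in 141 of 147 Zeb2-positive cells (95.9%) and in 203 of 562 Zeb2-negative cells (36.1%), or 95.9% and 33.0% after thinning. Its plate means ran from 176 through 249 to 369 CPM in the first and from 5.11 through 9.64 to 18.3 CPM in the second, without overlap. The means over cells were 266 and 10.4 CPM, a log2 ratio of 4.55, with 4.07 to 5.25 on single plates. Zeb2-positive cells made up 20.7% of All DR and held 87.0% of its summed Chrm2 signal.

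Chrm1 had a read in 112 Zeb2-positive cells (76.2%, 71.4% after thinning) and 69 Zeb2-negative cells (12.3%, 10.3% after thinning). Plate means ran from 12.7 through 24.0 to 37.2 CPM and from 0.211 through 1.57 to 4.87 CPM, again without overlap. The log2 ratio was 3.24 (24.3 against 1.68 CPM), above 0 on 11 of 11 plates, and the Zeb2-positive cells held 79.1% of the Chrm1 signal of the dissection. Chrm4, below the filter, had a read in 30 (20.4%) and 20 (3.56%) cells, 12.2% and 2.17% after thinning.

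Chrna3 had a read in 47 Zeb2-positive cells (32.0%) and 33 Zeb2-negative cells (5.87%), and its log2 ratio was 1.61 (6.10 against 1.33 CPM), with a range from -1.48 to 2.31 over plates and 9 of 11 above 0. Chrnb4, with 23 (15.6%) and 16 (2.85%) cells, and Chrna5, with 26 (17.7%) and 8 (1.42%) cells, were under the filter. For Chrna5 the shares after thinning were 10.2% and 0.903%. At least 1 gene of the chromosome 9 cluster was detected in 70 of 147 Zeb2-positive cells (47.6%) and 51 of 562 Zeb2-negative cells (9.07%), and all 3 were detected in 4 cells, each of them Zeb2-positive.

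Chrna4 was at 23.9 CPM in Zeb2-positive and 38.6 CPM in Zeb2-negative cells (log2 -0.67, below 0 on 10 of 11 plates), although a read of it was found in 114 (77.6%) and 368 (65.5%) cells. Cells with Irx2, which held 47.4% of the Chrna4 signal of All DR, fell almost wholly on the Zeb2-negative side. In the 384 All DR cells without Zeb2, Irx2 and high Grik1, Chrna4 stood at 21.4 CPM, with a read in 201. In Zeb2-positive against Zeb2-negative cells Chrna7 stood at -0.55 and Chrnb2 at -0.30. Of 6 genes compared, 3 (Chrm1, Chrm2, Chrna3) passed the fold upwards and none downwards, where 2.73% and 5.66% of 12748 genes did so. Their median was 0.65, against 0.04 over all genes. The median depth was 884326 reads in Zeb2-positive and 869119 in Zeb2-negative cells, and the oligodendrocyte sum was 165 and 213 CPM. Without plate 55, which held 1565 CPM on average, the order of the sums turned, at 178 and 75.2 CPM, and the part of these transcripts in the ratios was not tested.

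Within the Zeb2-positive cells Chrm2 was higher in those with a read of Piezo2, the gene of a mechanically gated channel. By the level of Zeb2 itself, the 9 cells with under 10 CPM of Zeb2 had a mean of 37.7 CPM of Chrm2 and 2.86 of Chrm1, and the 138 cells above had 281 and 25.7 CPM, a step that rests on few cells. In the 106 cells with a Piezo2 read, Chrm2 stood at 322 CPM and had a read in all 106. The other 41 cells had a mean of 123 CPM, a log2 ratio of 1.38 that lay above 0 on 7 of 7 plates. Chrm1 was at 28.0 and 14.6 CPM in the same cells (0.89, short of the fold and above 0 on 6 of 7 plates), and Chrm4 at 0.821 and 0.482 CPM (0.30, above 0 on 3 plates and below on 3). Chrna7 went the other way, at 0.479 and 2.41 CPM (-1.21, below 0 on 6 of 7 plates). These splits were added after the values had been seen.

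**Figure D2:**
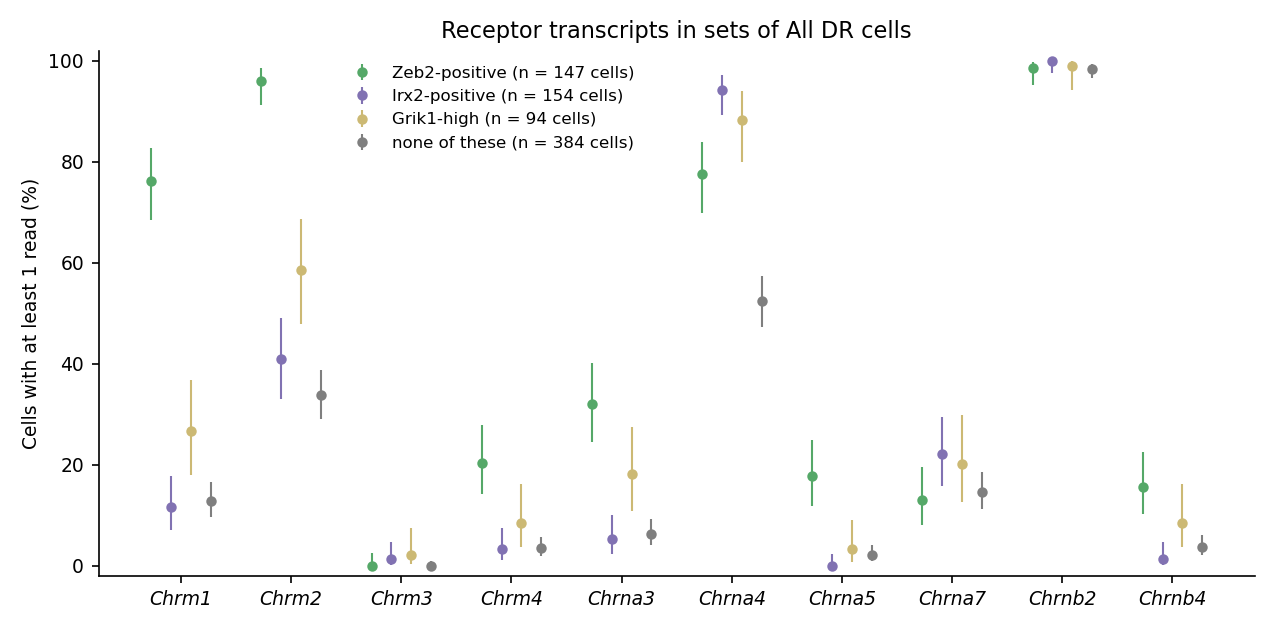
Share of All DR cells with at least 1 read of each gene (vertical axis, percent, with exact 95% intervals) in Zeb2-positive, Irx2-positive and Grik1-high cells, which overlap in part, and in cells of none of these sets. Chrm1 and Chrm2 are highest in Zeb2-positive cells (76.2% and 95.9%), Chrna4 in Irx2-positive cells (94.2%), and Chrnb2 is near 100% in all.

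Irx2-positive cells of All DR were marked by Chrna4. Their levels of Chrm1 and Chrm2 were low, and close to those of the cells without Zeb2, Irx2 and high Grik1. Irx2 encodes a homeobox transcription factor. Chrna4 with Chrnb2 was detected in nearly every cell. Chrna5 was detected in none, but also in only 8 of 562 Zeb2-negative cells. Chrm2 was at the level seen in Zeb2-negative cells.

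Chrna4 had a read in 145 of 154 Irx2-positive cells (94.2%, 89.2 to 97.3) and in 337 of 555 Irx2-negative cells (60.7%, 56.5 to 64.8), or 92.1% and 57.9% after thinning. Plate means ran from 58.6 through 72.8 to 101 CPM in Irx2-positive cells and from 15.5 through 26.9 to 35.3 CPM in the others, without overlap. The log2 ratio was 1.66 (77.6 against 23.9 CPM), from 0.77 to 2.62 on single plates and above 0 on 11 of 11. Irx2-positive cells, 21.7% of the dissection, held 47.4% of its summed Chrna4 signal. Within them, the 37 that were also Grik1-high had a mean of 123 CPM and the other 117 a mean of 63.2 (log2 0.95, above 0 on 7 of 8 plates).

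Chrm2 had a read in 63 (40.9%) Irx2-positive and 281 (50.6%) Irx2-negative cells, with a log2 ratio of -2.83 (10.2 against 78.3 CPM, below 0 on 11 of 11 plates). Chrm1 stood at -1.63 (1.79 against 7.63 CPM, below 0 on 10 of 11 plates). Cells with Zeb2 and Irx2 together numbered 5, so the Zeb2-positive cells fell almost wholly on the Irx2-negative side of both ratios. In the 384 All DR cells without Zeb2, Irx2 and high Grik1, Chrm2 stood at 10.4 and Chrm1 at 1.49 CPM. In Irx2-positive against Irx2-negative cells Chrna3 was at -0.94, and passed the fold without plate 50 (-1.06) or plate 51 (-1.30). Chrna5 had a read in 0 of 154 Irx2-positive cells, which allows a share of up to 1.95% (the share that 3 cells would make), and in 34 of 555 others. Zeb2-positive cells made up 26 of those 34. Among the 384 cells without Zeb2, Irx2 and high Grik1, 8 had a read of Chrna5.

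Chrna7 had a read in 34 Irx2-positive cells (22.1%) and 79 others (14.2%), with a log2 ratio of 0.64, above 0 on 8 of 11 plates. Chrnb2 had a read in 154 of 154 cells, at a ratio of 0.15. Of the 6 genes, 1 passed the fold upwards (Chrna4) and 2 downwards (Chrm1, Chrm2), where 0.918% and 1.87% of 12748 genes did, with medians of -0.39 and 0.02. The Irx2-positive cells were shallower, at a median of 785380 reads against 910859, and their oligodendrocyte sum was 191 against 206 CPM, or 197 against 66.7 CPM without plate 55. The part of these transcripts in the ratios was not tested.

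**Figure D3:**
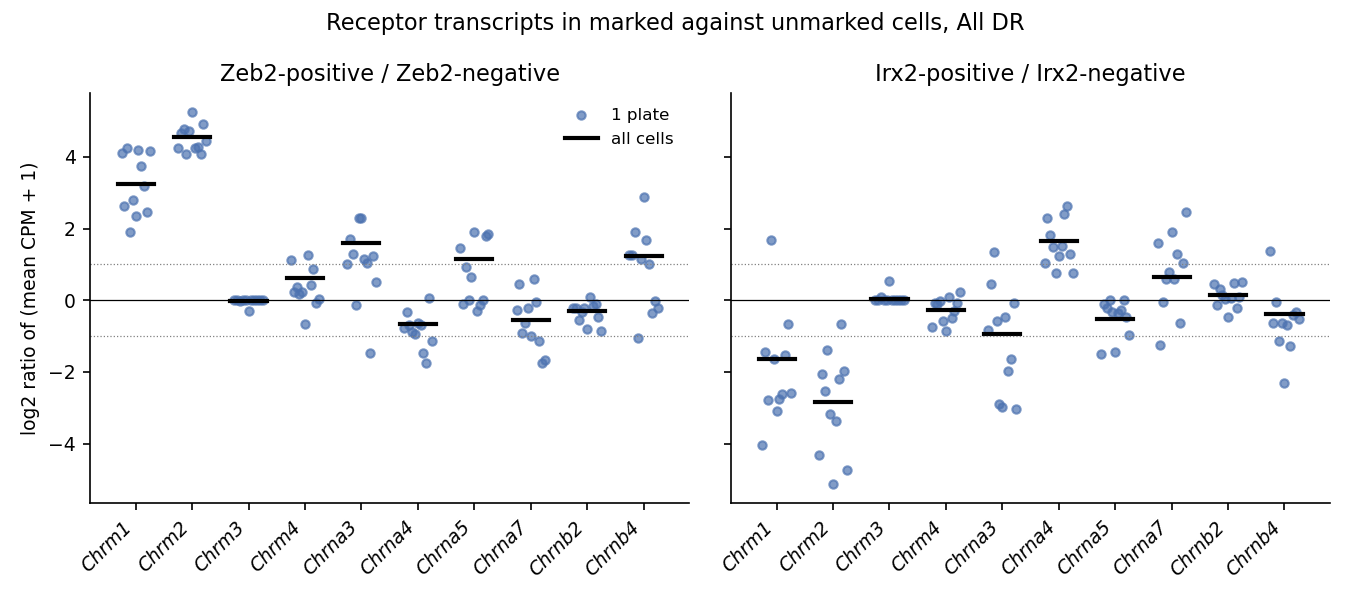
Log2 ratio of mean CPM plus 1 within each of 11 All DR plates (points) and over all cells (bars), for Zeb2-positive over Zeb2-negative cells (left) and Irx2-positive over Irx2-negative cells (right). Dotted lines mark a 2-fold difference in either direction. Chrm1 and Chrm2 lie above 1 on every plate on the left, and Chrna4 lies above 0 on every plate on the right.

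Grik1-high cells, the highest 10% of all cells by their CPM of the kainate receptor gene Grik1, also had more Chrna4. The lowest cell inside held 16.0 CPM of Grik1 and the highest outside 14.9. All DR held 94 such cells, of which 37 had Irx2, 30 had Zeb2, some of them both, and 29 had neither. Chrna4 had a read in 83 of the 94 cells (88.3%) and in 399 of the other 615 (64.9%), with plate means from 14.9 through 84.4 to 145 CPM and from 24.0 through 28.2 to 45.5 CPM. These ranges overlapped. The log2 ratio was 1.33 (75.5 against 29.5 CPM), above 0 on 9 of 11 plates and below on plates 48 (-0.26) and 55 (-1.55). Chrna4 was the only gene of 6 to pass the fold, and none was lower, where 0.832% and 1.23% of 12748 genes passed. The medians were 0.50 and 0.05.

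Chrm2 (0.64), Chrna3 (0.55), Chrm1 (0.46), Chrna7 (0.40) and Chrnb2 (0.11) stayed below it, and the range over plates included 0 for each. The oligodendrocyte sum was 70.5 CPM in Grik1-high and 223 CPM in the other cells, or 73.3 and 98.4 CPM without plate 55. Among cells without Zeb2 and Irx2, the 29 Grik1-high cells had a mean Chrna4 of 66.9 CPM and the other 384 cells 21.4 (1.60, above 0 on 4 of 5 plates), a comparison added later. Chrm2 stood at 10.9 and 10.4 CPM in the same cells.

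The next comparison set cells with a read of Slc17a8, which encodes the vesicular glutamate transporter VGLUT3, and none of Gad1 or Gad2 (Slc17a8-only) against cells that had Gad1 or Gad2, genes of the enzymes that make GABA, but no Slc17a8 (Gad-only). In Principal DR these sets differed in their receptors. Slc17a8-only cells had more Chrna4 and Chrna7 and Gad-only cells more Chrm2, on each of 5 plates. Chrna5 was detected in Gad-only cells and in 1 Slc17a8-only cell. Slc32a1, the gene of the vesicular GABA transporter, was near 0 throughout.

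Chrna4 had a read in 28 of 84 Slc17a8-only cells (33.3%, 23.4 to 44.5) and 8 of 136 Gad-only cells (5.88%, 2.57 to 11.3), or 31.3% and 3.68% after thinning. Its plate means were 14.9, 13.5, 9.23, 3.89 and 25.7 CPM in Slc17a8-only cells of plates 12, 13, 25, 39 and 40, and 1.80, 0.562, 0, 0 and 0 CPM in Gad-only cells. The sets did not overlap, and 3 plates had no Chrna4 read in any Gad-only cell. The log2 ratio was 3.06 (13.9 against 0.788 CPM), from 2.29 to 4.74 on single plates.

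Chrna7 had a read in 29 (34.5%) and 29 (21.3%) cells of these sets, 30.1% and 12.5% after thinning, and a log2 ratio of 1.14 (3.50 against 1.05 CPM), from 0.10 to 2.59 and above 0 on 5 of 5 plates. It passed the fold narrowly, and was at 0.99 when the few cells with Zeb2 or Irx2 were left out. Chrna5, under the filter, had a read in 1 (1.19%) and 19 (14.0%) cells, with 1.20% and 11.0% after thinning.

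Chrm2 had a read in 18 Slc17a8-only cells (21.4%, 13.2 to 31.7) and 84 Gad-only cells (61.8%, 53.0 to 70.0), or 19.3% and 55.9% after thinning. On plates 12, 13, 25, 39 and 40 the means were 2.47, 9.87, 1.13, 3.53 and 1.38 CPM in the first and 24.4, 26.5, 21.3, 11.6 and 22.0 CPM in the second. The ranges did not overlap. The log2 ratio was -2.22 (4.19 against 23.2 CPM). Chrm1 was at -0.26 and Chrnb2 at 0.06. Of 5 genes compared, 2 were higher and 1 lower in Slc17a8-only cells, where 2.03% and 2.81% of 12837 genes were, and the medians were 0.06 and -0.01.

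Cells with both kinds of transmitter gene lay between. The 47 cells with Slc17a8 and a Gad gene had means of 7.84 CPM of Chrna4 (a read in 11) and 11.8 CPM of Chrm2 (a read in 18). The 23 cells with neither had 23.4 CPM of Chrna4 (12 cells) and 26.2 CPM of Chrm2 (11 cells). The means of both genes were thus highest where neither Slc17a8 nor a Gad gene was read.

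**Figure D4:**
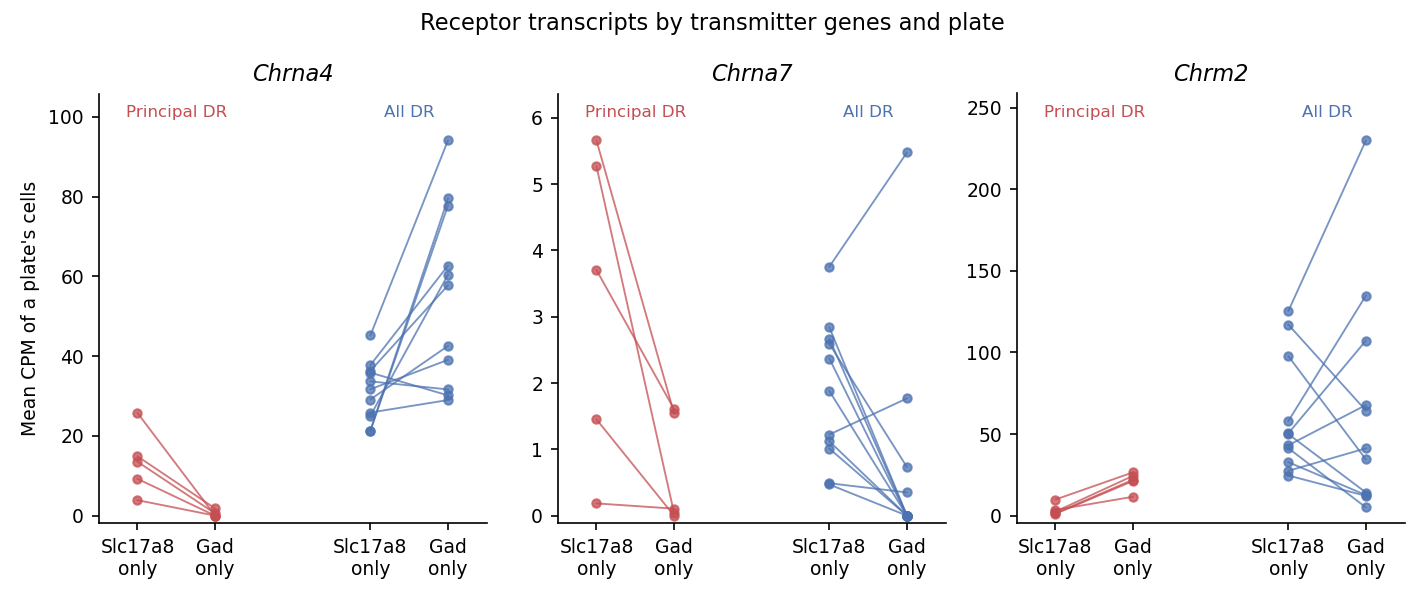
Mean CPM of Chrna4, Chrna7 and Chrm2 (vertical axes, linear and scaled separately) in Slc17a8-only and Gad-only cells, with a line for each plate of Principal DR (5) and All DR (11). Every Principal DR line falls for Chrna4 and Chrna7 and climbs for Chrm2, while All DR lines run both ways for each gene.

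The same comparison in All DR, 429 Slc17a8-only against 75 Gad-only cells, gave no receptor gene past the fold in either direction, where 1.33% and 1.98% of 12753 genes were. The medians were -0.02 and -0.03. Chrna4 was lower in Slc17a8-only cells (29.8 against 53.4 CPM, log2 -0.82, below 0 on 9 of 11 plates) although a read of it was found in more of them (302 cells, 70.4%, against 38 cells, 50.7%). Chrm2 was at 55.1 and 56.4 CPM. The difference between the dissections in these ratios was not tested.

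Zeb2 and Irx2 cells were mixed into both transmitter sets of All DR. Of the 75 Gad-only cells, 19 had Irx2 and 7 had Zeb2. All 19 and all 7 had Chrna4 with Chrnb2, as had 10 of the remaining 49 (20.4%). Among cells without Zeb2 and Irx2, a comparison added later, Chrm2 was lower in the 260 Slc17a8-only than in the 49 Gad-only cells (6.71 against 24.6 CPM, log2 -1.73, below 0 on 6 of 9 plates). Chrna4 then stood at 24.2 and 21.3 CPM (0.18), with a read in 161 of 260 and 12 of 49 cells, and Chrna3 at 1.27.

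The Gad-only cells of All DR had an oligodendrocyte sum of 1099 CPM, against 105 in Slc17a8-only cells. Plate 55 carried it: without that plate the sums were 58.5 and 108 CPM, and Chrna4 (-0.83) and Chrm2 (-0.14) stood as before. Chrnb4 had a read in 23 of 429 Slc17a8-only cells and in 0 of 75 Gad-only cells, which allows a share of up to 4%.

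Cells were then sorted by the receptor genes they held together. The most frequent nicotinic pattern in Principal DR was Chrnb2 with no other of the 6 nicotinic genes, in 147 of 290 cells (50.7%), followed by Chrna7 with Chrnb2 (56 cells, 19.3%) and Chrna4 with Chrnb2 (36 cells, 12.4%). In All DR the leading pattern was Chrna4 with Chrnb2 and nothing else, in 318 of 709 cells (44.9%), before Chrnb2 alone (155 cells, 21.9%) and Chrna4, Chrna7 and Chrnb2 (59 cells, 8.32%). Chrna4 with Chrnb2, whatever else was present, was found in 20.3% and 67.4% of cells, and in 18.3% and 64.5% after thinning. Since Chrnb2 was read in nearly every cell, these shares restate those of Chrna4.

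The accessory gene Chrna5 was read with Chrna4 or Chrna3, the subunits it is known to join, at a share near that of the cells without it in each dissection. In All DR, 26 of 34 cells with Chrna5 (76.5%, 58.8 to 89.3) and 464 of 675 cells without (68.7%, 65.1 to 72.2) had Chrna4 or Chrna3. In Principal DR the numbers were 4 of 24 (16.7%, 4.74 to 37.4) and 60 of 266 (22.6%, 17.7 to 28.1). Chrna4 with Chrnb2 and Chrna5 was found in 22 of 147 Zeb2-positive cells (15.0%) and 2 of 562 Zeb2-negative cells.

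In All DR, Chrna3 was read more often in cells that held one of its neighbours on chromosome 9. It had a read in 18 of 39 cells with Chrnb4 (46.2%) and in 62 of 670 without (9.25%), and in 13 of 34 cells with Chrna5 (38.2%) against 67 of 675 without (9.93%). These shares pool Zeb2-positive and Zeb2-negative cells. Of 147 Zeb2-positive cells 47 had Chrna3, 23 Chrnb4 and 26 Chrna5, and of 562 Zeb2-negative cells 33, 16 and 8. The part of Zeb2 status in the shares was not tested. In Principal DR 1 of 4 cells with Chrnb4 and 0 of 24 cells with Chrna5 had Chrna3. Most cells with Chrna3 in All DR also had Chrna4 (72 of 80, 90.0%, against 410 of 629 without Chrna3). Over 999 cells, which share plates and depth, the Pearson correlation of ln(CPM + 1) was 0.246 for Chrna3 with Chrnb4 and 0.219 after centring on plates. For Chrna3 with Chrna5 it was 0.072 (0.040 after centring), and for Chrna3 with Chrm2, which lies on another chromosome, 0.236 (0.168).

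Muscarinic genes of the opposite couplings met in part of the cells. No muscarinic gene was read in 41.4% of Principal DR and 42.5% of All DR cells, and Chrm2 without the others in 32.4% and 29.2%. A Gq-coupled and a Gi-coupled gene were read together in 10.3% and 18.8% of cells (6.92% and 16.7% after thinning). Zeb2-positive cells made up most of the latter: Chrm1 with Chrm2 was found in 110 of 147 of them (74.8%) and in 18 of 562 Zeb2-negative cells (3.20%). Chrm2 had a read in 128 of 181 All DR cells with Chrm1 (70.7%) and 216 of 528 without (40.9%), whereas in Principal DR the shares were 42.6% and 45.9%. The All DR shares pool Zeb2-positive and Zeb2-negative cells. Of 112 Zeb2-positive cells with Chrm1, 110 had Chrm2, as had 141 of all 147. Of 69 Zeb2-negative cells with Chrm1, 18 had Chrm2, as had 203 of all 562. The part of Zeb2 status in these shares was not tested. The Pearson correlation of Chrm1 with Chrm2 was 0.392 over all cells and 0.357 after centring on plates.

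Chrm2 and Chrna4, the leading genes of the families, were divided differently in the dissections. In Principal DR Chrna4 had a read in 18 of 131 cells with Chrm2 (13.7%) and 41 of 159 without (25.8%). In All DR it had a read in 256 of 344 cells with Chrm2 (74.4%) and 226 of 365 without (61.9%). Zeb2-positive cells had a median of 4 of the 10 genes each, from 1 to 8, and Zeb2-negative cells a median of 2, from 0 to 5.

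**Figure D5:**
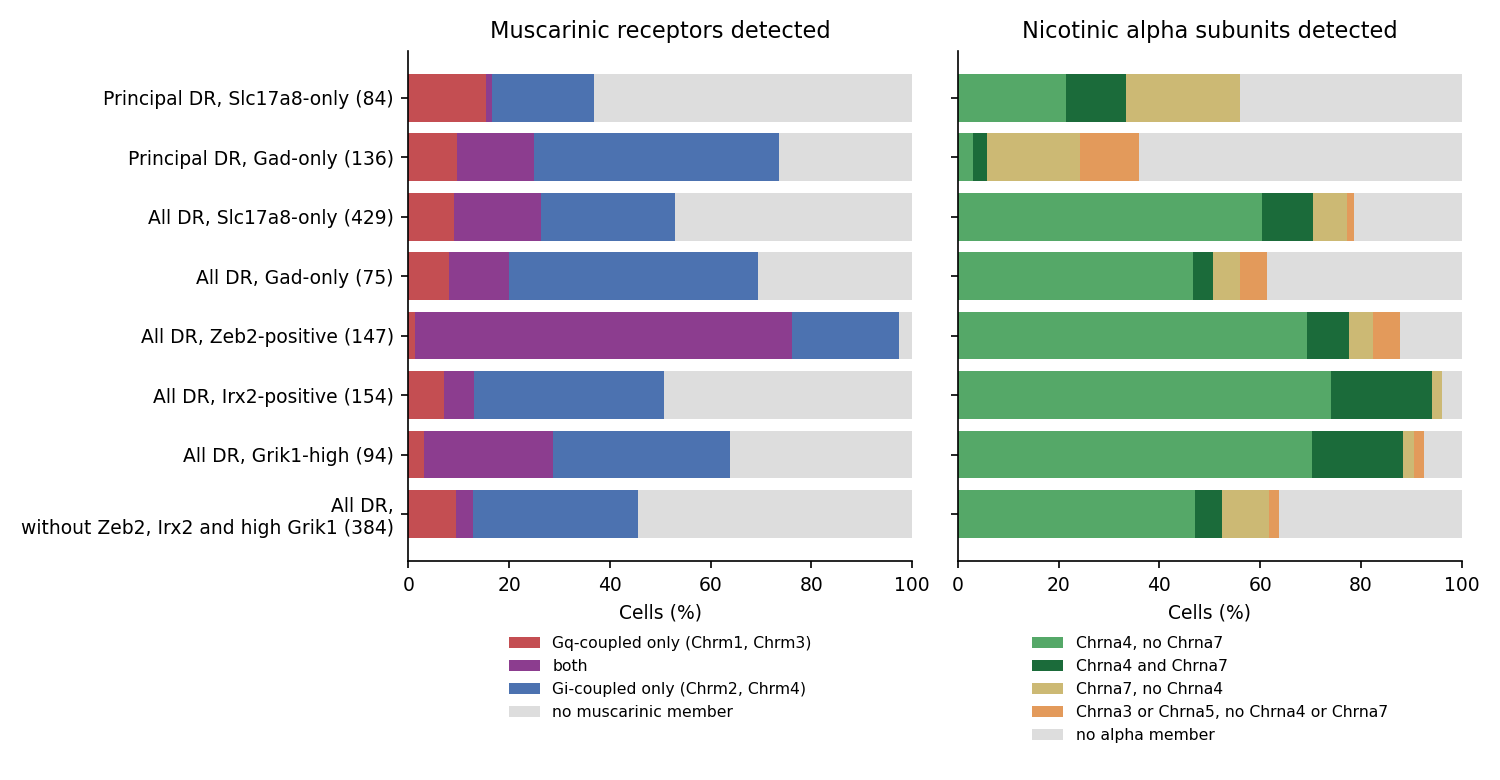
Share of cells (horizontal axis, percent) by the muscarinic genes read in them (left) and by the nicotinic α subunit genes read in them (right), for 8 sets whose cell numbers stand in brackets. Gq- and Gi-coupled genes together fill 74.8% of the Zeb2-positive bar, and cells with Chrna4 fill 94.2% of the Irx2-positive bar and 5.88% of that of Gad-only cells in Principal DR.

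Genes that serve these receptors were counted from lists of receptor assembly and modulation (8 genes), muscarinic signalling through Gq (8) and through Gi (7), and acetylcholine handling (7). Of these, 8, 7 or 8, 6 and 1 reached the filter. The Gi list gene Gnai3 was not among the 53263 genes, so it could not be compared. In Zeb2-positive against Zeb2-negative cells the Gq list had 2 genes higher and none lower: Plcb3 (8.21 against 0.587 CPM, log2 2.54) and Plcb4 (335 against 85.1 CPM, 1.96), phospholipase C isoforms that Gq activates, each above 0 on 11 of 11 plates. Over all genes compared in these sets 2.73% were higher and 5.66% lower. The Gi list had Kcnj3 higher (23.4 against 10.2 CPM, 1.12) and Kcnj6 lower (3.92 against 8.91 CPM, -1.01), both subunits of the potassium channels that Gi opens. Kcnj3 shares 1621 exonic bases with the lincRNA Gm26794 on the other strand. Of the assembly list, Lypd1, a Ly6-family modulator of nicotinic receptors, was higher (524 against 91.9 CPM, 2.50, 11 of 11 plates) and Ly6e lower (16.8 against 38.5 CPM, -1.15). Lypd1 shares 1202 exonic bases with Gpr39.

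In Irx2-positive against Irx2-negative cells Lypd6b (-1.58) and Plcb3 (-1.02) were lower and none was higher, where 1.87% of all genes were lower and 0.918% higher. Nearly all Zeb2-positive cells, with their high Plcb3, fell on the Irx2-negative side. Plcb3 stood at 0.758 CPM in Irx2-positive, 2.56 in Irx2-negative and 0.587 in Zeb2-negative cells. In Grik1-high cells Plcb1 (-1.01) was lower, as were 1.23% of all genes. In Slc17a8-only against Gad-only cells of Principal DR, Lynx1 (35.2 against 16.2 CPM, 1.07) and Lypd1 (81.7 against 25.5 CPM, 1.64), which both modulate nicotinic receptors, and Plcb1 (2.37) and the M-channel gene Kcnq3 (55.1 against 19.9 CPM, 1.43) were higher, as were 2.03% of all genes, and none was lower, where 2.81% of all genes were. Plcb1 was also higher in the Slc17a8-only cells of All DR (2.72, above 0 on 10 of 11 plates), where 1.33% of all genes were higher. All DR had more Lypd1 (182 against 49.9 CPM, 1.84), Plcb3 (2.17 against 0.354 CPM, 1.23) and Kcnj9 (45.2 against 21.2 CPM, 1.06) than Principal DR, where 1.75% of all genes were higher. Zeb2-positive cells lay almost only in All DR. In its Zeb2-negative cells Lypd1 stood at 91.9, Plcb3 at 0.587 and Kcnj9 at 47.3 CPM. Of acetylcholine handling 1 of 7 genes reached the filter, Ache, the gene of acetylcholinesterase, at 932 CPM in Principal DR and 955 CPM in All DR, and it passed the fold nowhere. The medians of the lists lay between -0.33 and 0.35 over the 6 comparisons, and those of all genes between -0.03 and 0.05.

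The genes whose level ran most alike to each receptor gene were taken by the Pearson correlation of ln(CPM + 1) over 999 cells, among 11518 genes. The cells share plates and depth, and values after centring on plates are given second. Chrm2 ran with 9330158H04Rik (0.688, 0.654), with which it shares exonic bases on the opposite strand, and with Zeb2 (0.673, 0.640). Chrm1 ran with Zeb2 (0.586, 0.564) and Piezo2 (0.546, 0.515). Chrna4 ran with Hpca, which encodes the calcium sensor hippocalcin (0.457, 0.346), and with Irx2 (0.453, 0.408). Chrna3 ran with the syntaxin-binding gene Stxbp6 (0.348, 0.262) and the chemokine gene Cxcl12 (0.328, 0.238). Chrnb2 ran with Napa, whose product helps take apart SNARE complexes (0.434, 0.453), and with Gde1 (0.429, 0.451). For Chrm3, Chrm4, Chrna5, Chrna7 and Chrnb4 no gene reached 0.3.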

How the data were processed

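Single tdTomato-positive cells were sorted into 96-well plates and made into Smart-seq2 libraries. Per the labels and methods, reads were demultiplexed with bcl2fastq 2.19.0.316, aligned to mm10 with STAR 2.6.1a and counted with HTSeq 0.11.2, without strand. The annotation release is not given in the sources used here. The authors deposited CPM values (read counts scaled to a common total per cell) of 53263 genes in 999 of 1536 labelled cells (480 labelled Principal DR, 1056 All DR); Y-linked genes had been removed. Whole reads were recovered from the CPM of each cell, and 100% of 9386862 values above 0 lay within 0.001 of a whole number. With 1 sample per group no count model could be run on them. Reads on genes served as the depth of a cell.

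Here a gene was detected with at least 1 read. Sets were compared by log2 of mean CPM plus 1, for genes with a mean of at least 1 CPM, and called at 1 or -1, which is 2-fold on this scale and understates the fold of low genes. The Zeb2 comparison alone was tried on simulated counts with log2 changes of 2 and -2, where 99 of 100 raised and 89 of 100 lowered genes were called. The simulated cells were independent and had no plates or subtypes, so it does not show how often an unchanged gene would pass in these data. Shares carry exact Clopper-Pearson 95% intervals. A share of 0 is given the upper limit of 3 cells. Grik1-high cells are the highest 10%. No doublet caller was run, since cells were sorted singly; 5 cells had Zeb2 and Irx2. Gene coordinates and exonic lengths are from GENCODE M21 (GRCm38), promoters from RefSeq (GRCm38.p6). The 10 genes, the lists and the comparisons were chosen with earlier results of these data known. Genes named beside the 10 are those of the lists that passed the fold and, for each receptor gene, the 2 genes with the highest correlation where it reached 0.3 (mean over 2 CPM); Chrm5, Chrna1, Chrna6, Chrnb1, Chrnd, Piezo2 and Adar were named after their values were seen. Alternatives were the thresholds for detection and for markers, thinning, depth, pseudocount, filter, scaling, weighting of plates and each plate left out. Python 3.11.15, NumPy 2.4.6, SciPy 1.17.1, pandas 2.3.3 and matplotlib 3.10.9 were used.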

Additional observations from a re-analysis of the deposited data

Results flagged for a closer look

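Plate means of the 10 genes were screened for a plate far from the other plates among the 5 of Principal DR. Such a plate was found for 3 genes. Chance trips the screen in about 1 of 20 groups of normally distributed values, a rate that need not hold for means of sparse genes. Chrm4 stood at 0.850 CPM on plate 39, where the next plate had 0.216 and the lowest 0.0295. Chrna3 stood at 2.80 CPM on the same plate, where 1 of 28 cells had a read of it, with 0.345 on the next and 0 on the lowest. Chrnb4 stood at 0.556 CPM on plate 13, with 0.0852 on the next. Chrm4, Chrna3 and Chrnb4 had a read in 16, 6 and 4 cells of Principal DR, so that few cells make up each of these means.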

How the results depend on the processing

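Of the counts of genes past the fold and the shares of cells with Chrna4 and Chrnb2, 241 values under alternatives stayed close to the reported one and 15 moved, and of values for single genes 909 stayed, 60 moved and 1, past the fold as reported, changed sign. Close means a count within 1.5 times, a share within its 95% interval, and a log2 ratio within 1 SD over plates. A further 19 ratios of single genes that had not reached the fold changed sign, 16 of them within that SD. With no filter on the mean, 5 genes were higher in Zeb2-positive cells, as were 1.66% of all 25522 genes then compared. With a pseudocount of 10 CPM, 1 gene was lower in Irx2-positive cells, as were 0.463% of all genes. In Slc17a8-only against Gad-only cells of Principal DR, 1 gene was higher with a pseudocount of 10 CPM, as were 0.569% of all genes. The same held with markers at 10 CPM or more (1.96% of all genes) or without cells with Zeb2 or Irx2 (2.16%). In that comparison 2 genes were lower with no filter (1.57% of all genes) or when scaled without the top 100 genes (3.54%). In All DR the same comparison had 1 gene higher with a pseudocount of 0.1 CPM (2.98% of all genes) or that scaling (2.06%). Without cells with Zeb2 or Irx2 it had 1 gene higher and 1 lower, where 2.23% and 3.13% of all genes were. Chrna4 went from -0.82 to 0.18 there. Between dissections 1 gene was higher without cells with Zeb2, Irx2 or high Grik1, as were 1.03% of all genes. Chrm2 turned to -0.57 and Chrm1 from 0.60 to -0.91 at that setting. The share with Chrna4 and Chrnb2 was 15.5% in Principal DR at 10 CPM or more, and 61.9% and 57.0% in All DR at 5 reads and at 10 CPM. Their causes were not tested beyond what each setting removes. Comparisons without cells with Zeb2, Irx2 or high Grik1 were chosen after seeing the data. A set of the highest 20% by Grik1 was not run, since 179 cells had a read and 200 were asked for. No paired analysis was possible because replicate numbers follow accession order and no test was run. Animals are not named, so the spread over plates may be technical, animal or both, and genes with a mean under 1 CPM (Chrm3, Chrm4, Chrna5 and Chrnb4 over both dissections) rest on few cells.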
